A study of Mus musculus with 6 samples.

Results

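The genes described here are the ligands and receptors of the colony-stimulating factors (CSFs) in mouse bone marrow–derived macrophages (BMDMs). They are the ligands Csf1, Il34, Csf2 and Csf3 and the receptor chains Csf1r, Csf2ra, Csf2rb, Csf2rb2 and Csf3r. They were found by matching the Ensembl gene IDs of the count table to Gencode gene names, and all 9 were present among 54446 gene IDs. BMDMs came from the marrow of male BALB/c mice aged 6 to 8 weeks and were differentiated for 7 days in 20% L929-conditioned medium, from a fibroblast line whose medium serves as a source of CSF-1. All 6 libraries therefore come from cells grown in CSF-1. M0 cells received no polarizing cytokine, M1 cells received IFN-γ (20 ng/mL) with LPS (50 ng/mL), and M2 cells received IL4 (20 ng/mL), for 24 hours. Each state was sequenced as a control (DMSO, the vehicle) and with regorafenib (1 µM, added 1 hour before polarization), an oral multikinase inhibitor. There was 1 library per condition, and no source used here says whether the cells of 1 animal or of several were pooled.

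CSF-1 (M-CSF, Csf1) and IL-34 bind the receptor tyrosine kinase encoded by Csf1r, which keeps macrophages alive and drives their growth. GM-CSF (Csf2) binds a specific alpha chain (Csf2ra) that signals through the common beta chain (Csf2rb), shared with the receptors for IL-3 and IL-5, and through JAK2 and STAT5. Mice have a further beta chain, Csf2rb2, that serves IL-3 alone. G-CSF (Csf3) acts through Csf3r, a receptor best known from neutrophils and their precursors, and inflamed macrophages are a known source of GM-CSF and G-CSF.

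The beta chains are shown first because they are near copies, so that some of their reads may not tell them apart. On GRCm38, Csf2rb lies at chr15:78325752-78353847 on the plus strand and Csf2rb2 at chr15:78282507-78305721 on the minus strand. Their coding sequences of 2688 and 2634 bases were identical at 95.2% of the 2628 bases that align without a gap. The longest identical run was 242 bases, which is longer than a read of 100 bases. Of the 100-base words in their exons, 4.63% of those of Csf2rb and 6.82% of those of Csf2rb2 also occur in the other chain. The libraries were read as pairs of 100 bases, so that a mate outside such a stretch can still place its pair, and the share of pairs that could not be placed was not measured. The stretch below, from the Gencode coding sequences, is 1 in which they can be told apart, with the 22 differing bases in capitals (bases 309 to 428 of Csf2rb and 312 to 431 of Csf2rb2).
Csf2rb: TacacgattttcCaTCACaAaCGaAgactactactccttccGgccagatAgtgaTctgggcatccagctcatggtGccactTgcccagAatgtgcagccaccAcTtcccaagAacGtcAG
Csf2rb2: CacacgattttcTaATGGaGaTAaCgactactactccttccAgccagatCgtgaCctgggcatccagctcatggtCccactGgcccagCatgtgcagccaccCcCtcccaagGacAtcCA

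Promoters are shown for 3 members whose levels moved in the comparisons described further on. RefSeq (GRCm38.p6) promoters reach from 250 bases before to 50 bases after the start of a gene, and the members with an entry were Csf1, Csf2, Csf2ra, Csf2rb2 and Csf3r. Both strands were searched for GAGGAA (the core of sites for PU.1, the factor that sets myeloid identity), for GGG and CC with any 5 bases between them (a loose NF-kB motif) and for TTCNNNGAA (the STAT motif). Of 32851 promoters, 28.3%, 50.8% and 8.30% held them. The matches in the sequences are in capitals.
Csf3r, chr4:126024409-126024708, plus strand: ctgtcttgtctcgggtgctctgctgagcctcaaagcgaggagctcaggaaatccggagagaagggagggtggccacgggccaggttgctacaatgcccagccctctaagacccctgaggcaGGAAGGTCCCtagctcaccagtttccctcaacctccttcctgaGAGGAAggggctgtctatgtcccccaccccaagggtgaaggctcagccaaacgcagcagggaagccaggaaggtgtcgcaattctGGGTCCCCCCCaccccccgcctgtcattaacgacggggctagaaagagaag
Csf2rb2, chr15:78305672-78305971, minus strand: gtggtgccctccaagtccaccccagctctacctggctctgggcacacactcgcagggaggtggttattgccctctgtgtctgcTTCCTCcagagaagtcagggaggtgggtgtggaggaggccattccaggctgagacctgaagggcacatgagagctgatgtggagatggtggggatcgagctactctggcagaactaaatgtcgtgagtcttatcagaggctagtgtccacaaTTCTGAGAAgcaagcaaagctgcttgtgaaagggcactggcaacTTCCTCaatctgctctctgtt
Csf1, chr3:107760420-107760719, minus strand: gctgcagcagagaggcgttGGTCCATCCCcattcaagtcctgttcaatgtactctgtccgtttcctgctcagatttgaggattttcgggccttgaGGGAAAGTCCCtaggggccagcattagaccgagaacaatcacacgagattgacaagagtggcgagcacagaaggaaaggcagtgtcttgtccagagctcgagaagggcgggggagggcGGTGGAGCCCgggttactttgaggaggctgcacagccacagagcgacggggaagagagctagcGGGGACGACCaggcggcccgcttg
The Csf3r promoter held 1 match to the PU.1 core, 86 bases before the start, and 3 to the NF-kB motif, 2 of which overlap. The Csf2rb2 promoter held 2 matches to the PU.1 core and 1 to the STAT motif, the only STAT match among the 5 promoters. The Csf1 promoter held 5 matches to the NF-kB motif, 2 of which overlap, and no match to the other motifs. A match describes the letters in the window and does not show that a factor binds there.

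The libraries held between 25359309 and 34898342 counts. Counts were scaled with edgeR's TMM factors to counts per 1000000 (CPM), and levels of different genes are compared only as CPM per kb of exon. A ratio between 2 libraries carries a 95% interval that covers counting error only, since there was 1 library per condition. The cells matched their labels: 6 of 6 M1 genes (Nos2, Il12b, Cxcl9, Cxcl10, Il6 and Acod1) were over 2-fold higher in M1 than in M0, and the M2 genes Retnla, Chil3, Mgl2, Ccl24 and Mrc1 were so in M2, in both drug arms. All 7 macrophage markers (Adgre1, Cd68, Fcgr1, Mertk, Lyz2, Itgam and Cd14) were detected in every library, and their summed level ran from 20102 to 45650 CPM. Mast cell markers were at 0 counts in every library, lymphocyte markers summed to at most 0.107 CPM and dendritic cell markers to between 0.485 and 38.8 CPM, led in M1 by Ccr7. In these bulk samples, fewer cells of a type and less RNA per cell cannot be told apart.

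Outside M1, every receptor gene stood above every ligand gene per kb of exon. Csf1r was the member with the highest level in all 6 libraries, between 295 and 533 CPM per kb. Csf2ra ranged from 87.0 to 133, Csf2rb from 25.6 to 179, Csf2rb2 from 27.1 to 133 and Csf3r from 1.92 to 18.05 CPM per kb. The beta chains and Csf3r therefore varied over a wide range, with the highest library above the lowest by 6.97-fold for Csf2rb, 4.90-fold for Csf2rb2 and 9.39-fold for Csf3r, against 1.80-fold for Csf1r and 1.53-fold for Csf2ra. The order of Csf2rb and Csf2rb2 within a library depends on the length taken for Csf2rb. With the longest transcript in place of all annotated exons, Csf2rb lay at 38.1 and not 25.6 CPM per kb in the M0 control, above the 27.1 of Csf2rb2.

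**Figure D1:**
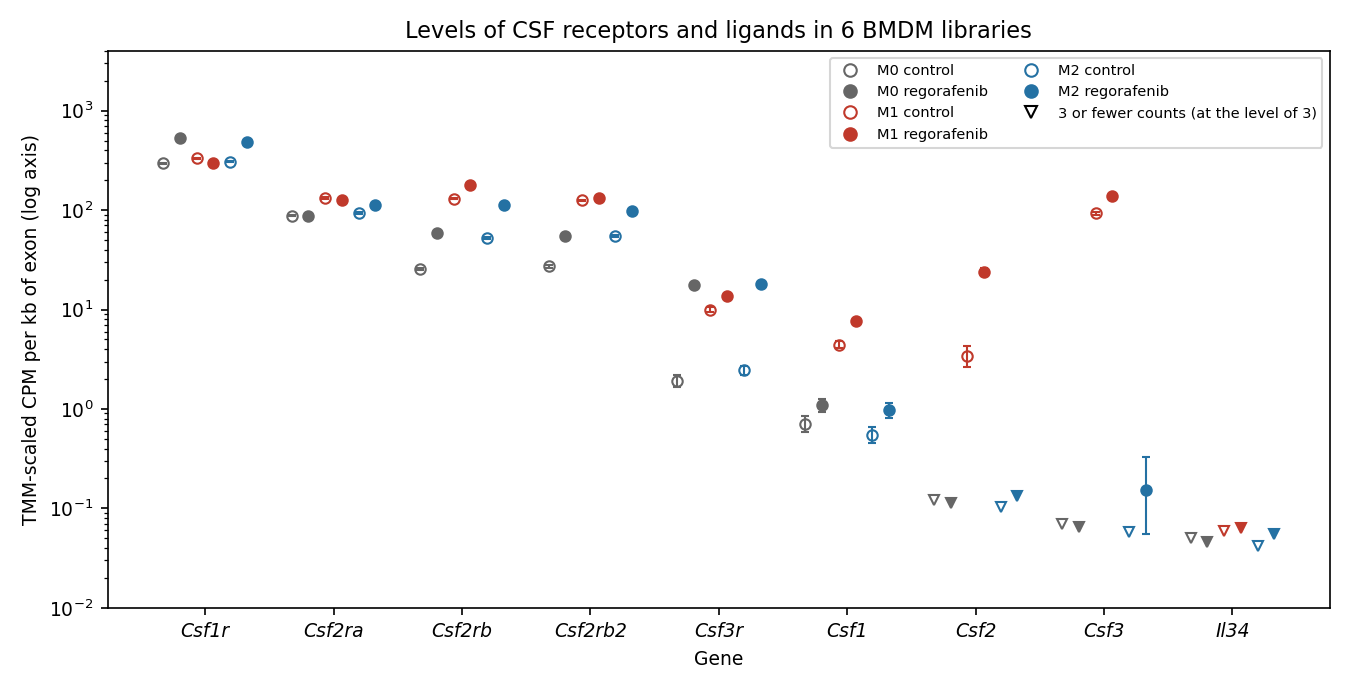
TMM-scaled CPM per kb of exon (log axis) of the 9 members in the 6 libraries, with open symbols for control, filled symbols for regorafenib, and bars for the 95% Poisson interval of the count (1 library per condition). Csf1r lies between 295 and 533 CPM per kb in every library, while Csf2 and Csf3 rise above the other states in M1 alone and Il34 is at the floor of 3 counts throughout.

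Of the ligands, Csf1 (ENSMUSG00000014599.10; chr3:107741048-107760469, minus strand) had 115 counts in the M0 control and 190 with regorafenib, 601 and 965 in M1, and 106 and 143 in M2. Both M1 libraries thus stood above all others, at 23.3 and 40.0 CPM, while the remaining 4 lay between 2.90 and 5.76 CPM. In each state the regorafenib library was above its control, with log2 ratios of 0.62 (0.28 to 0.97) in M0, 0.78 (0.64 to 0.93) in M1 and 0.82 (0.44 to 1.19) in M2. None of these reached a 2-fold difference. Within each drug arm, the M0 and M2 libraries did not differ beyond counting error.

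Csf1 in M1 exceeded M0 by a log2 ratio of 2.64 (2.35 to 2.94) in control cells and 2.80 (2.57 to 3.03) with regorafenib. Across both drug arms it rose in M1 (log2 fold change 2.77, adjusted p = 8.64e-04, edgeR's quasi-likelihood test). For M2 against M0 the control ratio of -0.37 (-0.76 to 0.03) and the regorafenib ratio of -0.17 (-0.50 to 0.15) both had intervals that include 0. Fibroblasts are a known source of CSF-1, and the summed level of 7 fibroblast and stromal markers was higher with regorafenib in each state. It was 10.4 CPM in the M0 control and 22.7 with regorafenib, 24.6 and 31.7 in M1, and 10.4 and 19.8 in M2, with Pdgfrb holding the most counts of the list in each library (218 to 599) and Dcn at 3 to 100 counts. In M1, Pdgfrb had 404 and 599 counts, whereas Dcn was lower with regorafenib (100 and 39). Of the 4 markers with 10 or more counts there, 0 were over 2-fold higher with regorafenib and 1 was over 2-fold lower. Of all genes, 1.76% were higher and 3.46% lower. With regorafenib in M0, Col1a1 (37 and 114 counts), Col1a2 (46 and 188) and Col3a1 (4 and 13) were over 2-fold higher than in control. In M1 the collagen genes had log2 fold changes against M0 of 0.12 for Col1a1 (adjusted p = 0.847), -0.19 for Col1a2 (0.793) and -0.41 for Col3a1 (0.702), while Pdgfrb (1.16, adjusted p = 0.0115) and Dcn (3.71, adjusted p = 0.00848, edgeR) rose. The part of these cells in the Csf1 level was not tested.

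Il34 (ENSMUSG00000031750.15; chr8:110741829-110805924, minus strand), the other ligand of the CSF-1 receptor, had 0 or 1 count in each library and was not detectable at this depth. Of the other proteins that bind IL-34, the phosphatase gene Ptprz1 had 0 or 1 count, whereas Sdc1, which encodes the proteoglycan syndecan-1, had 2474 and 2064 counts in M0, against 8044 and 4234 in M1 and 1776 and 2099 in M2. Sdc1 rose in M1 against M0 (log2 fold change 1.81, adjusted p = 0.0116, edgeR). Adam17, the protease that sheds the CSF-1 receptor from the surface, ranged from 10002 to 13826 counts and did not pass that test (adjusted p = 0.124).

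Csf2 (ENSMUSG00000018916.5; chr11:54247271-54249667, minus strand), the gene of GM-CSF, had more than 1 count in M1 only. There were 70 counts in the M1 control and 462 with regorafenib, against 0 and 0 in M0 and 1 and 0 in M2. The M1 libraries lay at 2.71 and 19.2 CPM, a log2 ratio of 2.82 (2.46 to 3.21), or 7.08-fold, which was the largest difference with regorafenib of any member in M1. Against M0, where a floor of 3 counts in the library was used, Csf2 in M1 was at least 27.7-fold higher in control cells and at least 211-fold higher with regorafenib. The gene shares exon bases with Gm12223 on the opposite strand, which had 0 or 1 count per library. The RefSeq start of Csf2 lies outside the Gencode gene, and its promoter is not shown for that reason.

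Csf3 (ENSMUSG00000038067.2; chr11:98701263-98703629, plus strand), the gene of G-CSF, had 3393 and 4750 counts in M1, 0 and 1 in M0 and 0 and 6 in M2. It was the most abundant ligand, at 131 CPM in the M1 control and 197 with regorafenib, and its level per kb there (92.9 and 139) was of the size of that of the GM-CSF receptor chains. The log2 ratio of regorafenib to control in M1 was 0.59 (0.52 to 0.65), smaller than that of Csf2. In control cells Csf3 was at least 1345-fold higher in M1 than in M0. With regorafenib the single count in M0 gave a log2 ratio of 12.67 (10.19 to 17.97), which became 7.59 with 1 CPM added to both values. The 6 counts in M2 with regorafenib were at least 2.61-fold above the control, under the minimum of 10 counts. Csf2 and Csf3 both rose in M1 across the drug arms, with adjusted p-values of 0.00226 and 3.62e-04 (edgeR).

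Among the receptors, Csf1r (ENSMUSG00000024621.15; chr18:61100598-61132149, plus strand) had 52356 counts in the M0 control and 101392 with regorafenib, 49500 and 41775 in M1, and 64521 and 78969 in M2. On the CPM scale the 3 control libraries were close together, at 1704 in M0, 1916 in M1 and 1767 in M2. Regorafenib libraries were higher in M0 (3076 CPM) and M2 (2823 CPM) and lower in M1 (1733 CPM). The log2 ratios of regorafenib to control were 0.85 (0.84 to 0.87) in M0, 0.68 (0.66 to 0.69) in M2 and -0.14 (-0.16 to -0.13) in M1. The direction in M1 was therefore opposite to that in the other states, and no state reached 2-fold. The M1 regorafenib library was close to the M0 control, with an interval of their log2 ratio from 0.0057 to 0.043.

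Csf1r overlaps Hmgxb3 on the opposite strand, with shared exon bases. Hmgxb3 had between 921 and 1306 counts, far below Csf1r, and the strand setting of the counting is not stated. The ratio of M1 to M0 in Csf1r depended on the drug arm, at 0.17 (0.15 to 0.19) on the log2 scale in control cells and -0.83 (-0.84 to -0.81) with regorafenib. The sign in control cells turned with the scaling, since the ratio was -0.27 on total counts. Scaling by total counts also moved the median of all genes in M1 against M0 by -0.44 in control cells and -0.41 with regorafenib, and relative to that median Csf1r remained above 0 in control cells. Csf1r did not pass the test of M1 against M0 across both arms (log2 fold change -0.25, adjusted p = 0.557, edgeR).

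Csf2ra (ENSMUSG00000059326.6; chr19:61223957-61228429, minus strand), the alpha chain that makes the receptor specific for GM-CSF, was the steadiest member. Its counts were 7775 and 8235 in M0, against 9857 and 8652 in M1, and 9861 and 9014 in M2, for control and regorafenib. Regorafenib and control differed little, with log2 ratios of -0.02 (-0.06 to 0.03) in M0, -0.09 (-0.13 to -0.05) in M1 and 0.25 (0.21 to 0.30) in M2. M1 libraries were above M0 by 0.59 (0.55 to 0.64) in control cells and 0.52 (0.48 to 0.57) with regorafenib. Csf2ra rose in M1 across both arms (log2 fold change 0.62, adjusted p = 0.0414, edgeR), a call that was lost on total counts (adjusted p = 0.564), with the fit limited to M0 and M1 (0.141) and without the filter on low counts (0.0644).

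Csf2rb (ENSMUSG00000071713.6), the common beta chain, moved with both polarization and regorafenib. It had 5729 counts in the M0 control and 14178 with regorafenib, 24562 and 31341 in M1, and 13961 and 22782 in M2. All neighbours in the order of its 6 levels differed beyond counting error, and the order ran from the M0 control (187 CPM) over M2 control (382), M0 regorafenib (430), M2 regorafenib (814) and M1 control (951) to M1 regorafenib (1300 CPM). The regorafenib library was above its control in all 3 states, with log2 ratios of 1.21 (1.16 to 1.25) in M0, 0.45 (0.43 to 0.48) in M1 and 1.09 (1.06 to 1.12) in M2.

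Csf2rb2 (ENSMUSG00000071714.7), the beta chain of the IL-3 receptor, followed nearly the same order at lower counts, except that its M0 regorafenib and M2 control libraries did not differ beyond counting error. It had 3944 and 8485 in M0, 15348 and 15175 in M1, and 9494 and 13104 counts in M2. Its log2 ratios of regorafenib to control were 1.003 (0.95 to 1.06) in M0, where the interval includes the 2-fold line, 0.85 (0.81 to 0.89) in M2 and 0.08 (0.05 to 0.12) in M1. The chains therefore differed most clearly in M1, where Csf2rb was higher with regorafenib and Csf2rb2 nearly level. In M1 against M0, both chains rose across the drug arms, Csf2rb by a log2 fold change of 2.04 (adjusted p = 0.00278) and Csf2rb2 by 1.83 (adjusted p = 0.00484, edgeR). In M2 against M0 the ratios were 1.04 for Csf2rb and 1.02 for Csf2rb2 in control cells, and 0.92 and 0.86 with regorafenib. Across both arms these did not pass the test (adjusted p = 0.243 and 0.314, edgeR), although DESeq2, which called 2.98% of genes, called Csf2rb (adjusted p = 0.0171).

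Ratios of 2 members within a library do not depend on scaling. The ratio of Csf2rb to Csf2ra counts was 0.737 (0.712 to 0.763) in the M0 control and 1.72 (1.68 to 1.77) with regorafenib. In M1 it was 2.49 (2.43 to 2.55) and 3.62 (3.54 to 3.71), and in M2 it was 1.42 (1.38 to 1.45) and 2.53 (2.47 to 2.59). The beta chain was thus higher relative to the alpha chain with regorafenib in 3 of 3 states. The Csf2rb share of both beta chains was 59.2% in the M0 control and 62.6% with regorafenib, 61.5% and 67.4% in M1, and 59.5% and 63.5% in M2, with counting intervals that did not overlap in any state. For each of these relations the exact permutation test over the 3 states gave p = 0.25, two-sided, the smallest p that 3 pairs allow. Csf1r relative to Csf2ra was higher with regorafenib in 2 of 3 states, from 6.73 to 12.3 counts per count in M0 and from 6.54 to 8.76 in M2, and was 5.02 and 4.83 in M1 (exact permutation p = 0.5).

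**Figure D2:**
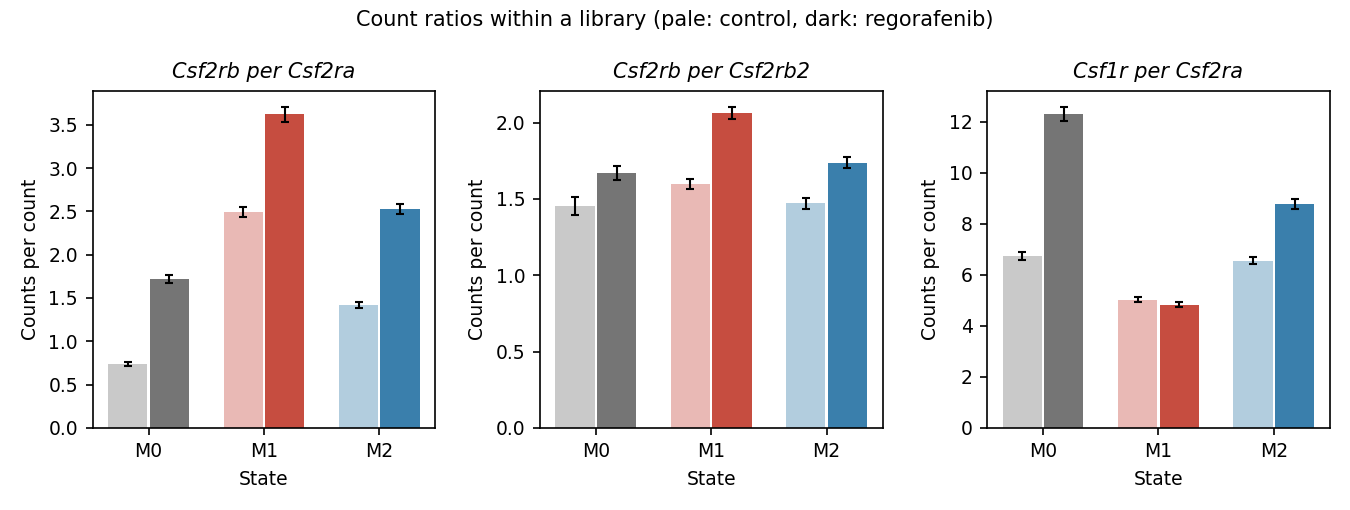
Counts of Csf2rb per count of Csf2ra (left), of Csf2rb per count of Csf2rb2 (middle) and of Csf1r per count of Csf2ra (right) within each library, by state, with pale bars for control and dark bars for regorafenib. Error bars are 95% exact binomial intervals, and the Csf2rb to Csf2ra ratio was higher with regorafenib in each state, from 0.737 to 1.72 in M0, 2.49 to 3.62 in M1 and 1.42 to 2.53 in M2.

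Csf3r (ENSMUSG00000028859.14; chr4:126024550-126044440, plus strand), the G-CSF receptor gene whose promoter is printed above, showed the largest difference with regorafenib in M0 and M2 among members with 10 or more counts. It had 213 counts in the M0 control and 2120 with regorafenib, 323 and 1822 in M2, and 930 and 1188 in M1. The M0 and M2 controls formed the low end at 6.93 and 8.85 CPM, and the M0 and M2 regorafenib libraries the high end at 64.3 and 65.1 CPM. The high end showed no difference beyond counting error (log2 ratio of M2 to M0 0.02, -0.07 to 0.11), whereas at the low end M2 was slightly above M0 (0.35, 0.10 to 0.61). The log2 ratios of regorafenib to control were 3.21 (3.01 to 3.42) in M0, 2.88 (2.71 to 3.06) in M2 and 0.45 (0.33 to 0.58) in M1.

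The M1 libraries lay between these ends, so that the M1 to M0 ratio of Csf3r turned with the drug arm. It was 2.38 (2.16 to 2.60) in control cells and -0.38 (-0.49 to -0.28) with regorafenib, and Csf3r did not pass the test across both arms (adjusted p = 0.226, edgeR). Ly6g, which defines mouse neutrophils, was at 0 counts in all libraries, and Ngp and Ltf had at most 2 counts. S100a9 (0 and 11 counts) and Cxcr2 (6 and 18) were past the fold on the higher side with regorafenib in M2, while 0 neutrophil markers were on that side in M0 or M1 and 2 were on the lower side in M1. Over all genes, 6.15% were higher in M2, 9.47% in M0 and 1.76% in M1, where 3.46% were lower. Camp had 0 or 1 count outside M1 and 108 and 91 counts in M1. The summed level of the 8 neutrophil markers, mostly Mmp8 and S100a8, was 29.7 CPM in the M0 control and 51.7 with regorafenib, 127 and 48.4 in M1 and 11.8 and 16.4 in M2. A further 6 markers, of myeloid progenitors, summed to 96.1 and 163 CPM in M0, against 84.5 and 90.2 in M1 and 100 and 142 in M2, most of it Mpo, while Elane and Prtn3 had at most 2 counts. Cd34 of the same list was lower with regorafenib in M0, at 463 and 237 counts (log2 ratio -1.07), and its ratio in M2 was -0.13 (-0.33 to 0.08). Kit had 8 and 15 counts in M0, against 35 and 107 for M1 and 2 and 3 for M2. The part of the neutrophil and progenitor markers in the Csf3r level was not tested.

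The members past a 2-fold difference with regorafenib were all on the higher side. A member was counted as past the fold when it differed at least 2-fold and 1 of the libraries held 10 or more counts of it. In M0 this held for 3 of the 6 members with enough counts (Csf2rb, Csf2rb2 and Csf3r), all higher with regorafenib, where 9.47% of 13964 genes were higher and 20.4% differed in either direction. In M2 it held for 2 of 6 (Csf2rb and Csf3r), where 6.15% of genes were higher and 11.2% differed in either direction. In M1 it held for 1 of 8 (Csf2), where 1.76% of genes were higher and 5.22% differed. No member was past the fold on the lower side in any state. At a 3-fold difference only Csf3r remained in M0 and M2. With DESeq2's size factors Csf2rb2 fell just under 2-fold in M0 (log2 ratio 0.99), which left 2 members there.

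**Figure D3:**
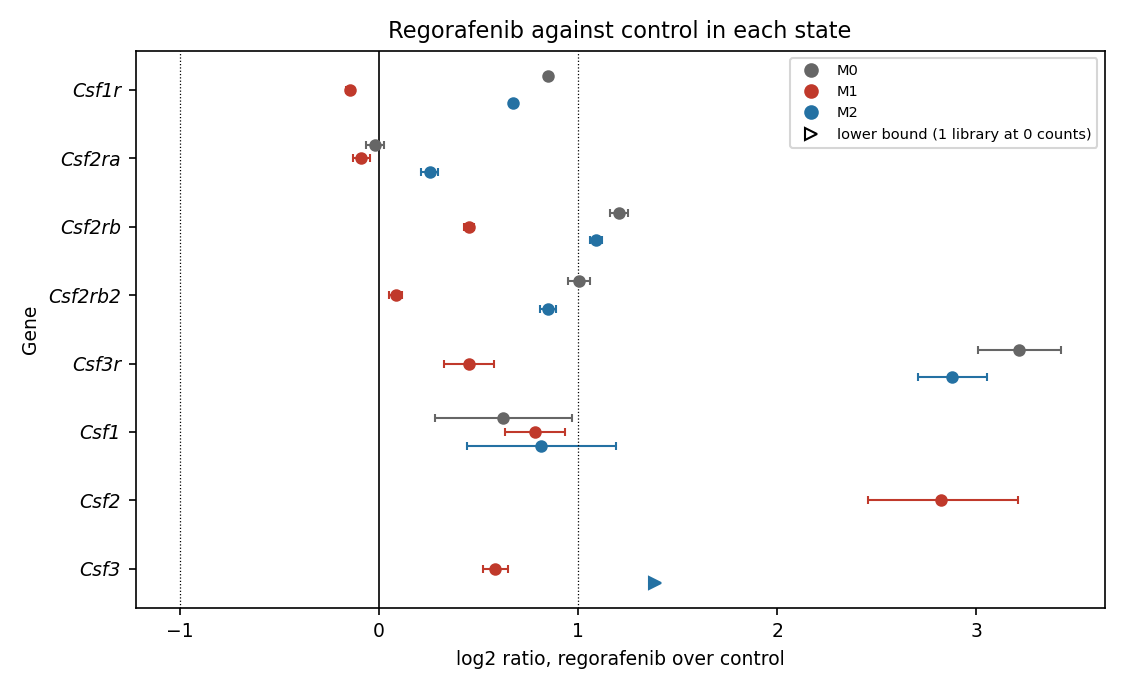
Log2 ratio of regorafenib to control for 8 members in M0 (grey), M1 (red) and M2 (blue), with bars for the 95% counting interval and an arrow for a lower bound against a library at 0 counts. Dotted lines mark a 2-fold difference, and Csf3r stands at 3.21 in M0 and 2.88 in M2 while Csf2 stands at 2.82 in M1.

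The drug was compared over all 3 states in 1 additive model, the only comparison of regorafenib with more than 1 library a side. The residual of this model holds the differences between states in their response. edgeR's quasi-likelihood test called 0 of 14110 genes (0%) and 0 of the 8 members tested at an adjusted p under 0.05. At an unadjusted p under 0.05 it counted 1637 genes (11.6%) and 5 members, Csf2rb, Csf1, Csf3r, Csf2 and Csf2rb2, all higher with regorafenib, where 5.74% of genes were. The log2 fold changes were 0.93 for Csf2rb, 0.76 for Csf1, 2.22 for Csf3r and 0.66 for Csf2rb2, with adjusted p-values between 0.315 and 0.398. That of Csf2 (2.60) came from the M1 pair, since each library outside M1 held 0 or 1 count of it. DESeq2 in the same model called 297 of 12851 genes (2.31%), among them Csf3r (adjusted p = 0.00149), Csf2rb (0.00588) and Csf1 (0.0477). For Csf2 it gave a log2 fold change of 0.20 (adjusted p = 0.985). Without the M1 libraries edgeR called 386 genes, among them Csf3r, Csf2rb2 and Csf2rb (adjusted p = 0.0398, 0.0477 and 0.0408).

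More members were past the fold between M1 and M0 than between regorafenib and control. In M1 against M0, 6 of 8 members were past the fold on the higher side in control cells (Csf1, Csf2, Csf3, Csf2rb, Csf2rb2 and Csf3r), where 17.4% of genes were higher and 37.1% differed. With regorafenib 5 of 8 were, without Csf3r, where 16.3% of genes were higher and 37.9% differed. Across both arms edgeR called 5174 of 14110 genes (36.7%, with 18.5% higher), and 6 of the 8 members tested rose, with Csf2ra in place of Csf3r. In M2 against M0, 2 of 6 members were past the fold in control cells (Csf2rb and Csf2rb2), where 4.69% of genes were higher and 12.3% differed. With regorafenib 0 of 6 were, where 4.41% of genes were higher and 9.59% differed. Across both arms edgeR called 28 genes (0.198%) and 0 of 8 members, with 1309 genes (9.28%, 4.54% higher) at an unadjusted p under 0.05, Csf2rb and Csf2rb2 among the higher. M1 and M2 ratios of 1 arm share its M0 library, as does the M0 ratio of regorafenib to control.

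**Figure D4:**
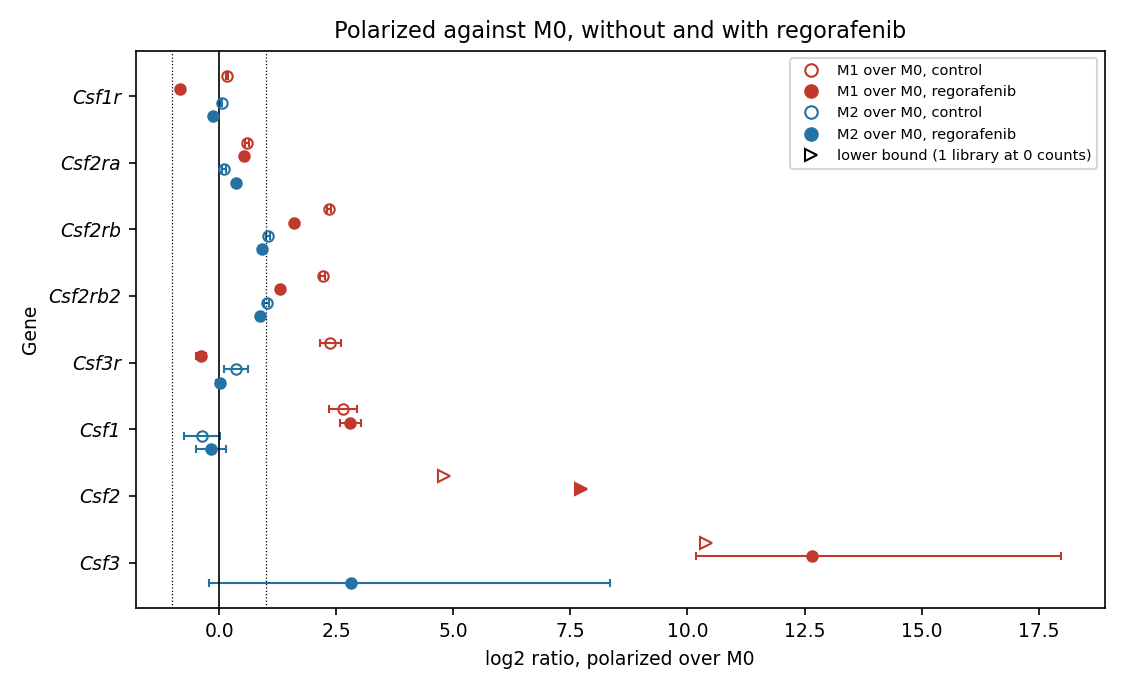
Log2 ratio of M1 (red) and M2 (blue) to M0 for 8 members, with open symbols for control, filled symbols for regorafenib, bars for the 95% counting interval and arrows for lower bounds against a library at 0 counts. Csf3r in M1 stands at 2.38 in control cells and -0.38 with regorafenib, whereas Csf1 stands at 2.64 and 2.80.

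Genes that act in these pathways were counted in lists written from general knowledge, but with earlier results of these data known. Their counts therefore describe these libraries and are not an independent test. The 19 genes of CSF-1 receptor signalling (adaptors, PI3-kinase, Src family kinases, phosphatases and Cbl proteins) had median log2 ratios of regorafenib to control of 0.14 in M0, -0.10 in M1 and 0.05 in M2. Of these 19, 0 were past the fold in M0 and in M1, and 1, the Src family kinase gene Fgr (507 and 982 counts, log2 ratio 1.34), was higher in M2. The share of all genes past the fold in either direction was 20.4% for M0, 5.22% for M1 and 11.2% for M2. In M1 against M0, 3 of the 19 rose, Src and Lyn among them, by edgeR across both arms. The 6 that fell were Tyrobp, Gab3, Pik3cd, Plcg2, Fyn and Inpp5d. Of all genes, edgeR called 36.7%, with 18.5% higher. The fall was largest for Gab3, an adaptor of the CSF-1 receptor, at 218 and 378 counts in M0 and 15 and 14 in M1 (log2 fold change -3.91, adjusted p = 0.00152).

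Of 14 listed genes known to be induced by CSF-1, 10 were past the fold on the lower side with regorafenib in M0 and 0 on the higher (median log2 ratio -2.07), against 10.9% of all genes lower. The other 4 were Egr1 and Egr2, with log2 ratios of 0.29 and 0.47, and Spry2 and Ier3, with -0.60 and -0.53. In M2, 5 were lower and 0 higher (median -0.90), against 5.07% of all genes lower. In M1, 1 was higher and 1 lower (median 0.09), against 3.46% of all genes lower. The cyclin gene Ccnd1 had 29262 and 1921 counts in M0 (log2 ratio -4.03), 51132 and 5438 in M2 (-2.85) and 57 and 76 in M1. Its relative Ccnd2 had 363 and 50 counts in M0 and 353 and 35 in M2, but 1723 and 4155 in M1. The chemokine gene Ccl2 went from 11274 to 149 counts in M0 and from 30618 to 649 in M2, and had 19070 and 33467 counts in M1. In the model over all 3 states, where edgeR called 0 of 14110 genes, 0 of the 14 passed at an adjusted p under 0.05.

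In the GM-CSF and G-CSF signalling list, 1 of 11 genes was higher and 1 lower with regorafenib in M0, 2 were higher in M1 and 3 in M2. Of all genes, 9.47% were higher and 10.9% lower in M0, and 1.76% were higher in M1 and 6.15% in M2. Cish, a STAT5 target that restrains cytokine signalling, had 16 and 23 counts in M0, against 269 and 982 in M1 and 241 and 533 in M2. Its log2 ratios were 0.42, 1.97 and 1.53, so that it was past the fold in the 2 polarized states. Socs2, another STAT5 target, had 3 and 10 counts in M0, against 4 and 23 in M1 and 24 and 44 in M2. Jak2 and Stat5a, the kinase and transcription factor of this pathway, were not past the fold with regorafenib in any state. In M1 against M0, 7 of the 11 genes rose and 0 fell (edgeR, where 18.5% of all genes rose). They were Jak2, Stat3, Cish, Socs1, Socs3, Pim1 and Ptpn11.

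Of 9 genes known to be induced by GM-CSF, 8 were past the fold on the higher side with regorafenib in M2 (median log2 ratio 1.29), 3 of 8 with enough counts in M1 (0.84) and 2 of 7 in M0 (0.42), and 0 were lower in any state. The shares of all genes that were higher were 6.15% in M2, 1.76% in M1 and 9.47% in M0. The chemokine gene Ccl17 had 19 and 375 counts in M1, 4 and 38 in M2 and 1 and 0 in M0. Ccl22 had 1295 and 6114 counts in M1, 172 and 405 in M2 and 9 and 5 in M0. The MHC class II transactivator gene Ciita had 47 and 686 counts in M0, 154 and 1144 in M2 and 495 in both M1 libraries. Pparg, which GM-CSF induces in alveolar macrophages, was the gene not past the fold in M2 (1885 and 1345 counts). Cish and Pim1 are in this list and in the signalling list, and several of its genes are also induced by IL4. Several, such as Ccl17, Ccl22 and Ciita, are also used by dendritic cells, whose 6 markers summed to 0.712 CPM in the M2 control and 2.79 with regorafenib. Of these markers the transcription factor gene Zbtb46 had 15 and 59 counts in M2 (log2 ratio 2.36). The other 5 (Flt3, Cd209a, Xcr1, Clec9a and Ccr7) had at most 9 counts there. In M0, Zbtb46 was past the fold on the lower side, at 14 and 5 counts (log2 ratio -1.59). The 6 markers summed to 0.553 CPM in the M0 control and 0.485 with regorafenib. In M1 the 6 markers summed to 32.0 and 38.8 CPM. Xcr1, of cross-presenting dendritic cells, had 36 and 102 counts there, Ccr7 had 780 and 827 and Zbtb46 had 9 and 5. The part of dendritic cells in these values was not tested. In the model over all 3 states, where edgeR called 0 of 14110 genes, 0 of the 9 passed.

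Of the other users of the beta chains, only Il3ra had more than 6 counts. Il3 and Il5 were at 0 counts in every library and Il5ra had 0 counts in M0 and M2 and 6 and 5 in M1. Il3ra, the IL-3 receptor alpha chain, had 433 and 752 counts in M0, against 345 and 321 in M1 and 423 and 514 in M2, and was not past the fold in any comparison. Its log2 ratios of regorafenib to control, 0.69 in M0, 0.00 in M1 and 0.67 in M2, stood beside 1.003, 0.08 and 0.85 for Csf2rb2.

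Of 8 myeloid transcription factor genes, 1 was past the fold on the higher side and 2 on the lower in M0. In the polarized states 0 were higher, and 1 was lower in M1 and 2 in M2. Of all genes, 9.47% were higher and 10.9% lower in M0, against 1.76% and 3.46% for M1 and 6.15% and 5.07% for M2. Cebpe, a factor of granulocyte maturation, was the gene past the fold in all 3 states, with 73 and 38 counts in M0, against 28 and 2 for M1 and 52 and 17 for M2 (log2 ratios -1.04, -3.71 and -1.23). It did not pass the test over the 3 states, which called 0 of 14110 genes (adjusted p = 0.386, edgeR). Spi1, the gene of PU.1, ranged from 6383 to 11285 counts and was not past the fold in any comparison. Cebpa, whose product activates Csf3r in myeloid precursors, had 1744 and 4086 counts in M0 (log2 ratio 1.13), 187 and 173 in M1 and 6360 and 5824 in M2. Its log2 ratio in M2 was 0.26, and its part in the Csf3r level was not tested. Ets2 had 5416 and 1146 counts in M0, against 7166 and 4427 in M1 and 2774 and 772 in M2, and was past the fold on the lower side in M0 and M2 (log2 ratios -2.34 and -1.46).

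Genes with the most similar pattern were sought by the root mean square (rms) difference of centred log2 CPM over the 6 libraries, among 11308 genes. Csf2rb and Csf2rb2 were each other's nearest gene (rms 0.171), and they are the chains that share 100-base words. The next nearest to Csf2rb was Ralgds (0.172), with 780 and 1913 counts in M0, against 3667 and 3859 in M1 and 1415 and 3002 in M2. Csf1 was nearest to Nfkb2 (0.151), a subunit gene of NF-kB, at 1583 and 2711 counts in M0, against 10016 and 14035 in M1 and 1535 and 1905 in M2. Csf2 was nearest to Susd2 (0.256) and H2-Ob (0.394), and Csf3 to Serpinb2 (0.272) and Il12a (0.334), all with most of their counts in M1. Csf1r was nearest to Kbtbd3 (0.0317) and Mier1 (0.0510), and Csf2ra to Jade3 (0.0427) and Clec16a (0.0577), members that varied little. Csf3r had no close neighbour, with Ciita (0.417) and Mturn (0.464) the nearest, and the second neighbours of Csf1 and Csf2rb2 were Fscn1 (0.185) and Hist1h2al (0.218). With 6 libraries these are descriptions, and they share depth, scaling and the few conditions.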

How the data were processed

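BMDM RNA was extracted with an AllPrep kit, and polyA libraries were made with a TruSeq Stranded mRNA kit and sequenced in 6 conditions. By the submitters' processing notes and the study's methods, adapters were removed with cutadapt 2.4 and STAR 2.7.2a aligned the reads to GRCm38 and counted them by gene. The authors deposited whole-number counts per gene that had not been normalized. The strand setting of the counting is not given in the sources used here. Gene names, positions and exon lengths came from Gencode on GRCm38 (53229 of 54446 IDs matched with their version, 1180 without it, 37 were unnamed). No sample column was left unused.

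Counts were scaled with TMM (edgeR 4.0.16, R 4.3.3). Within a state or drug arm there was 1 library per group and therefore no test. Ratios of 2 libraries carry a 95% conditional exact binomial interval, with a count of 0 replaced by 0.5 only for counts of genes past the fold, and a library at 0 counts was set to a floor of 3 counts for bounds. Intervals and floors cover counting error only. The study's methods use NOISeq without replicates, and a 2-fold difference with 10 or more counts in 1 of the libraries took its place. edgeR's quasi-likelihood test was fitted to all 6 libraries with state and drug as additive terms (2 residual degrees of freedom), on genes kept by filterByExpr, with Benjamini-Hochberg adjustment over 14110 genes and a threshold of 0.05. DESeq2 1.42.0 was an alternative. Libraries of other states or arms stand in for replicates there, so p-values measure the spread between these 6 libraries. The scripts were tested on simulated data. Ratios within a library have exact binomial intervals (scipy 1.17.1).

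The members and lists were chosen with earlier results of these data known. The genes named are the 9 members, the genes of the fixed pathway and marker lists, and, for each member with at least 100 counts in a library, the 2 genes of most similar pattern (log2 of CPM with 0.5 added). The alternatives were other scalings, an added 1 CPM, other minimum counts (none or 50), a fold of 3, DESeq2, no filter, leaving out states, the longest transcript as length and Pearson correlation. Of the listed genes, 2 are not reported here by name.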

Additional observations from a re-analysis of the deposited data

Results flagged for a closer look

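Csf1r, the CSF-1 receptor gene, differed in direction between the states: its log2 ratio of regorafenib to control was 0.85 in M0 and 0.68 in M2, but -0.14 in M1. Csf2ra, the GM-CSF receptor alpha chain, had a ratio of 0.25 in M2 and -0.088 in M1. Csf3r, the G-CSF receptor gene, had a log2 ratio of M1 to M0 of 2.38 in control cells and -0.38 with regorafenib. In each case the signs were opposite under every scaling tried, and with 1 library per condition the difference between states or arms was not tested.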

How the results depend on the processing

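No called value changed sign under any alternative. With a fold of 3 in place of 2, the members past the fold with regorafenib fell from 3 to 1 in M0 and from 2 to 1 in M2, and those in M2 against M0 in control cells from 2 to 0. With DESeq2's size factors the count in M0 was 2, since Csf2rb2 was lost. On total counts the count for M2 against M0 in control cells was also 0. Without a minimum count Csf3 was added in M2, which made 3 members past the fold with regorafenib, and 1 member (Csf3, at 6 counts against 1) was past the fold in M2 against M0 with regorafenib. For regorafenib across the 3 states, where edgeR called 0 genes and 0 members, DESeq2 called 297 genes and 3 members and edgeR without the filter on low counts 333 genes and 3 members. Leaving out 1 state at a time gave 0 to 386 genes and 0 to 3 members, with 386 genes and 3 members only without M1. For M2 against M0 across both arms, the 28 genes became 412 with DESeq2, 408 without the filter and 100 with only M0 and M2 in the fit, and the 0 members became 1 with DESeq2 and 1 without the filter. The median of Csf1r per kb over that of Csf2rb was 3.73 with all exons and 3.08 with the longest transcript. Of the 16 genes of most similar pattern, 4 were also named by Pearson correlation. For single members, 36 ratios moved beyond their counting interval and 102 did not, 11 tests newly passed, 3 no longer passed and 94 kept their side of the threshold. The cause of these differences was not tested, beyond the higher fold, the missing minimum or the fewer libraries themselves. The labels carry no replicate numbers, and the model over the 3 states already holds state as a term. Depth limits Il34 in all states and Csf2 and Csf3 outside M1, and with 1 library per condition no difference within a state has a replicate check.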
